A study of Homo sapiens with 4 samples.

Results

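The 34 genes described here code for the enzymes and carriers of glycolysis, of its entry and exit steps and of the pentose phosphate pathway. A gene was a member if its symbol stood on the fixed list and was the gene name of a non-control probe on all 4 arrays. All 34 were found, through 58 probes, among 27196 genes tested. Each member is given by its brightest probe, and in all 34 that probe was well above background in both channels of every array.

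A2780s is an established cell line of epithelial ovarian cancer (EOC), and the study asked how the loss of GALNT3, or of GALNT3 and GALNT6 together, changes its gene expression. RNA of 2 GALNT3 KO clones and of 2 GALNT3/T6 KO clones was each hybridized with Ctrl RNA of mock-transfected A2780s cells on a two-color array that holds 45015 spots. By the labels, Ctrl carried Cy3 and KO carried Cy5 on every array, so a dye effect on a gene cannot be told apart from the effect of the KO. No array set Ctrl against Ctrl, so the tests leave out the spread of Ctrl itself. In GALNT3 KO, the gene was disrupted with CRISPR/Cas9 in clones 1 and 2. In GALNT3/T6 KO, GALNT6 was in addition targeted by shRNA in GALNT3 KO clones, so by the labels all 4 clones carry the GALNT3 edit, and the shRNA vector went with the second group alone. Each array stands for 1 clone, and differences between clones of a group count as replicate error.

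In GALNT3 KO, the GALNT3 probe did not reach the scanner mark for well above background in the KO or the Ctrl channel, and its log2 ratio of KO over Ctrl was 4.80 and 5.08 on the GALNT3/T6 KO-labelled arrays. The latter is at odds with the label at the level of RNA. An RNA probe cannot show whether an edited gene still makes protein, and the paper checked its clones by Western blot. Why the probe rose was not tested, and these arrays are named by their label throughout. GALNT6 stood at -0.47 and -0.38 in GALNT3 KO and at -0.66 and -0.69 on the GALNT3/T6 KO-labelled arrays. In the Ctrl channel, 7 of 8 epithelial or ovarian carcinoma markers and both mesenchymal markers were well above background on all 4 arrays. That mark separates little here, since 3 of 3 leukocyte, 4 of 4 fibroblast and 2 of 3 endothelial markers passed it too. On the GALNT3/T6 KO-labelled arrays, KRT18, a keratin of simple epithelia, stood at 5.41 and 5.95, while the mesenchymal markers went apart, VIM at -2.84 and -1.87 and CDH2 at 2.40 and 2.68. The fibroblast markers went apart too, with COL1A1 at 1.77 and 2.20 and PDGFRB at 3.09 and 3.79, but COL1A2 at -0.26 and -0.37 and DCN at -0.26 and -0.47. The part of these markers in the results below was not tested.

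Glycolysis splits glucose into pyruvate in the cytosol and yields ATP and NADH. Many tumors pass much of that pyruvate on to lactate, which LDH forms and monocarboxylate carriers export, even in the presence of oxygen. The pentose phosphate pathway branches off at glucose phosphate and supplies NADPH and ribose for nucleotides. Several steps are shared by paralogs that differ in tissue and regulation, among them hexokinases, phosphofructokinases, aldolases, enolases, lactate dehydrogenases and the carriers of glucose and lactate. Hypoxia-inducible factors and MYC are known activators of many of these genes.

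Paralogs can only be read apart where their probes differ. The probes were not compared with the transcripts of the paralogs, so binding to a paralog was not tested. The first 30 bases of the 60-base probes used for the enolases, the lactate dehydrogenases and the lactate carriers are shown here as the file lists them (5′ to 3′, coordinates of the whole probe in hg19), since the largest isoform differences below rest on them.
ENO1, probe at chr1:8923961-8924020: aacgagaagtcctgcaactgcctcctgctc
ENO2, probe at chr12:7032482-7032541: ttcattcatcccattaatcatttccccata
ENO3, probe at chr17:4860149-4860296: ctcggagcgtctggccaaatacaaccaact
LDHA, probe at chr11:18428789-18428848: agatacactttgggggatccaaaaggagct
LDHB, probe at chr12:21788449-21788508: tgggacatccagaaggacctaaaagacctg
SLC16A3, probe at chr17:80197288-80197347: gtcttggggacagctctttccacccctgga
SLC16A1, probe at chr1:113455735-113455794: agctatttctgctcccctgttcaaagatgc

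Hypoxia-inducible factors are known to bind a short core motif, searched here as ACGTG and GCGTG on both strands, in the 250 bases before each start that RefSeq lists (GRCh38.p14). A CACGTG counts on both strands, and it is also the site known for MYC. Of the 34 members, 31 had at least 1 listed start, and 32 of their 60 windows held the motif (53.3%), against 43.2% of all 35116 windows. Of the 19 members with a single start, 12 held it. The windows of PGK1, GPI and ENO1 are shown because these genes differed most between the clones labelled GALNT3/T6 KO, and those of ENO2 and ALDOC because these were called in opposite directions. Capitals mark the motif on either strand.
PGK1, chrX:78103998-78104247 (plus strand): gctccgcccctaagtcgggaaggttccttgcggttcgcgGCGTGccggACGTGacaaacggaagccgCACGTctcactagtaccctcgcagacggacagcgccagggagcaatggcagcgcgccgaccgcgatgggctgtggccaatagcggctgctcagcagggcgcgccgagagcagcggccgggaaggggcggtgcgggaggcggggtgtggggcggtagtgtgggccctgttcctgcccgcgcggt
GPI, chr19:34364742-34364991 (plus strand): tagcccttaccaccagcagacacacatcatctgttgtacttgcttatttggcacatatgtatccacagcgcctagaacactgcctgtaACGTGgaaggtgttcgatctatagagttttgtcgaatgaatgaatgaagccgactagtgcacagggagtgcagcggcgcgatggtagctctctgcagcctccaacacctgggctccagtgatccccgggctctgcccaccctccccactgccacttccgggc
ENO1, chr1:8878687-8878936 (minus strand): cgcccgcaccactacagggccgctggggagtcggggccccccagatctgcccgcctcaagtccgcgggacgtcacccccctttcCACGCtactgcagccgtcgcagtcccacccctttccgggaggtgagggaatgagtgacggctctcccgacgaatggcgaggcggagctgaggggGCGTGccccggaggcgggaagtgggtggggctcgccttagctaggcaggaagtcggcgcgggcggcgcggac
ENO2, chr12:6914330-6914579 (plus strand): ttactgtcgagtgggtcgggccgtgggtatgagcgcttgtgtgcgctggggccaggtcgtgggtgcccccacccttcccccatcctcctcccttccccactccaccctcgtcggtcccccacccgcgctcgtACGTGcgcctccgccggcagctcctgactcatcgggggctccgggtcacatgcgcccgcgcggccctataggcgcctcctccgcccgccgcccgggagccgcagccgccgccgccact
ALDOC, chr17:28576896-28577145 (minus strand): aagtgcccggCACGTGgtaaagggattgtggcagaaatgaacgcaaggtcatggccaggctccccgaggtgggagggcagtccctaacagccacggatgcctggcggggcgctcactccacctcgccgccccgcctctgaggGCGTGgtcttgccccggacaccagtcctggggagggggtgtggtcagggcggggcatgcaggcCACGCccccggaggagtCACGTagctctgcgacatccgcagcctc
ALDOC held 5 matches, the most among the windows shown, and was lower than Ctrl on every array. Among the windows not shown, that of PDHB and a window of HK2 held 6. Whether matches go with the direction of change was not tested. A match is a run of letters and not a shown binding site.

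The values below are log2 ratios of KO over Ctrl on 1 array, and a call means that limma gave an adjusted p of at most 0.05 (Benjamini-Hochberg) over all 27196 genes. In GALNT3 KO, 4 of the 34 members were called lower (11.8%, against 6.44% of all genes) and none was called higher (4.79% of all genes). At an unadjusted p of at most 0.05, 11 members passed in that comparison, against 35.6% of all genes, which is near the members' share. The 4 were the lactate exporter SLC16A3, the glucose carrier SLC2A3, the regulator PFKFB4 and the aldolase ALDOC. On the GALNT3/T6 KO-labelled arrays, 4 members were called higher (11.8%, against 24.8% of all genes) and 9 lower (26.5%, against 23.1%), so the share of lower calls was near that of all genes and the share of higher calls below it. The median over the members was -0.27 in GALNT3 KO and -0.01 on the GALNT3/T6 KO-labelled arrays, against 0.02 and 0.03 over all genes. In bulk RNA, fewer cells with a transcript and less of it per cell cannot be told apart.

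The number of calls depended on which arrays entered the fit. With GALNT3 KO fitted on its own 2 arrays, 17 of the 34 members were called lower (17.9% of all genes) and 2 higher (5.88%, against 16.8%). Those gained included ENO1, LDHA, PGK1, PGAM1, ALDOA, PFKP and SLC2A1. Without either GALNT3 KO array, no gene at all was called in that group, members included. Without replicate 1 of the GALNT3/T6 KO-labelled arrays, 16 members were called higher there (47.1%, against 22.8%), and without replicate 2, 18 were called lower (52.9%, against 24.1%). Leaving out one of these arrays moves the group mean as well as the spread, and the members' median became 0.38 and -0.43.

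Glucose enters through facilitative carriers. SLC2A1 (GLUT1), the common carrier of proliferating cells, stood at -0.74 and -0.65 in GALNT3 KO and at -0.33 and 0.27 on the GALNT3/T6 KO-labelled arrays. It was not called in either group (adjusted p = 0.060 and 0.90). SLC2A3 (GLUT3), a carrier of high affinity, stood at -0.80 and -0.70 in GALNT3 KO and at 0.05 and 0.40 on the GALNT3/T6 KO-labelled arrays. It fell 1.69-fold in GALNT3 KO (mean -0.75, SE 0.11, adjusted p = 0.034), and the groups differed by 0.98 (SE 0.16, adjusted p = 0.016). Its second probe gave -0.73 and 0.43 as group means. Agilent's own log ratio gave no call for SLC2A3 in GALNT3 KO, at -0.48 (adjusted p = 0.12).

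Hexokinases trap glucose as glucose phosphate. HK1, the widely expressed form, stood at 0.14 and 0.19 in GALNT3 KO and at 0.67 and 0.72 on the GALNT3/T6 KO-labelled arrays, where it rose 1.62-fold (mean 0.70, SE 0.08, adjusted p = 0.0028). A second HK1 probe stood between -0.15 and -0.13 on all 4 arrays. HK2, the inducible form of many tumors, stood at -0.26 and -0.72 in GALNT3 KO and at -0.86 and -0.42 on the GALNT3/T6 KO-labelled arrays. Its fall in the latter was 1.56-fold (mean -0.64, SE 0.17, adjusted p = 0.033), and without either of these 2 arrays the value was -0.86 or -0.42, the second not called (adjusted p = 0.082). It was not called either without a GALNT3 KO array (adjusted p = 0.069). The groups differed in HK1 by 0.53 (SE 0.11, adjusted p = 0.030), a difference that missed the threshold with Agilent's log ratio at 0.30 (adjusted p = 0.16).

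PGM1 links glycogen with glucose phosphate, and GPI turns glucose phosphate into fructose phosphate. PGM1 stood at -0.36 and -0.13 in GALNT3 KO and at 0.25 and 1.49 on the GALNT3/T6 KO-labelled arrays. GPI stood at 0.37 and -0.21 in GALNT3 KO and at -1.01 and 0.45 on the others. Neither was called against Ctrl in either group, and for GPI the clones of each group lay on opposite sides of Ctrl.

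Phosphofructokinase commits the sugar to glycolysis through 3 subunits. PFKM, named for muscle, stood at -0.11 and -0.37 in GALNT3 KO and at -1.05 and -0.99 on the GALNT3/T6 KO-labelled arrays. It fell 2.03-fold in the latter (mean -1.02, SE 0.10, adjusted p = 0.0018) and the groups differed by -0.78 (SE 0.14, adjusted p = 0.020). PFKL, named for liver, stood at 0.12, -0.01, -0.37 and 0.36 over GALNT3 KO 1 and 2 and GALNT3/T6 KO 1 and 2. A second PFKL probe stood at -0.67, -0.30, -1.06 and 0.02 in the same order. PFKP, named for platelets, stood at -0.62 and -0.67 in GALNT3 KO and at -0.31 and 0.43 on the others. PFKM was thus the subunit that was called, and PFKL and PFKP were not.

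The bifunctional PFKFB enzymes make and remove fructose bisphosphate that activates phosphofructokinase. PFKFB4, a form known from tumors, stood at -1.36 and -0.96 in GALNT3 KO and at -1.38 and -0.79 on the GALNT3/T6 KO-labelled arrays. It fell 2.23-fold in GALNT3 KO (mean -1.16, SE 0.18, adjusted p = 0.035) and 2.12-fold in the other group (mean -1.09, SE 0.18, adjusted p = 0.0092). In GALNT3 KO it was not called from Agilent's own log ratio, at -0.83 (adjusted p = 0.11), and the interval of the difference between the groups ran from -0.60 to 0.75. PFKFB3, whose kinase activity prevails, stood at -0.01 and -0.04 in GALNT3 KO and at -0.76 and -0.81 on the GALNT3/T6 KO-labelled arrays, 1.72-fold lower than Ctrl (SE 0.08, adjusted p = 0.0020). Of the other 3 PFKFB3 probes, 2 pointed the same way, at -0.26 and -0.42, and 1 stood at 0.29. PFKFB2 stood between -0.04 and 0.42 on the 4 arrays and was not called.

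Aldolase cleaves the product of phosphofructokinase into trioses. ALDOC, the form typical of brain, was lower than Ctrl on all 4 arrays, at -0.76 and -0.72 in GALNT3 KO and at -1.16 and -1.35 on the GALNT3/T6 KO-labelled arrays. The falls were 1.67-fold (SE 0.09, adjusted p = 0.025) and 2.39-fold (SE 0.09, adjusted p = 0.00076). ALDOA, the form of muscle and most proliferating cells, stood at -0.58 and -0.53 in GALNT3 KO and at -0.47 and 0.41 on the others, and was not called.

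The 4 enzymes between the trioses and phosphoglycerate were not called in either group. TPI1, which interconverts the trioses, stood at -0.21 and -0.43 in GALNT3 KO and at -0.86 and 0.49 on the GALNT3/T6 KO-labelled arrays. GAPDH, which makes NADH, stood at -0.14, -0.04, -0.12 and 1.14 in the same order. PGK1, which yields ATP, stood at -0.36, -0.39, -0.76 and 0.94. For PGAM1, a mutase, the values were -0.60, -0.50, -0.43 and 0.56. By the probes used, all 4 were below Ctrl in 3 clones and above it in GALNT3/T6 KO 2. The other TPI1 probe stood at -0.77 in GALNT3/T6 KO 2. The other PGK1 probes ran from -0.22 to 0.78 there, and in each of the other clones they lay on both sides of Ctrl.

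Enolase acts just before pyruvate kinase and has 3 forms here. ENO1, the ubiquitous form, stood at -0.48 and -0.63 in GALNT3 KO and at -1.19 and 0.27 on the GALNT3/T6 KO-labelled arrays, without a call. ENO2, the form known as neuron-specific enolase, stood at -0.06 and -0.08 in GALNT3 KO and at 1.55 and 2.36 on the others, where it rose 3.88-fold (mean 1.96, SE 0.20, adjusted p = 0.0022). ENO3, the muscle form, stood at -0.03 and 0.10 in GALNT3 KO and at -1.99 and -2.21 on the GALNT3/T6 KO-labelled arrays, a fall of 4.28-fold (mean -2.10, SE 0.10, adjusted p = 0.00026). Between the groups ENO2 differed by 2.03 (SE 0.29, adjusted p = 0.010) and ENO3 by -2.13 (SE 0.14, adjusted p = 0.0012). The groups did not overlap for either gene, and GALNT3 KO clones stayed within 0.10 of Ctrl for both.

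Lactate dehydrogenase is a tetramer of LDHA, which favors lactate formation, and LDHB, which favors the reverse. LDHA stood at -0.39 and -0.46 in GALNT3 KO and at 0.36 and 1.58 on the GALNT3/T6 KO-labelled arrays, just short of a call in the latter (mean 0.97, SE 0.29, adjusted p = 0.0501). Its other 2 probes gave 0.80 and 0.39 there, the second of them placed on chromosome 9 by the array annotation. LDHB stood at 0.43 and 0.16 in GALNT3 KO and at -0.98 and -0.37 on the GALNT3/T6 KO-labelled arrays, where it fell 1.60-fold (mean -0.67, SE 0.17, adjusted p = 0.031). With median centring the LDHB call was lost, at -0.11 (adjusted p = 0.63), while LDHA was called, at 1.40 (adjusted p = 0.023). LDHB was not called without replicate 1 of this group, at -0.37 (adjusted p = 0.072), or without either GALNT3 KO array (adjusted p = 0.092). The difference between the groups was not called for LDHA (1.39, adjusted p = 0.080) or LDHB (-0.97, adjusted p = 0.051).

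Lactate leaves through SLC16A3 (MCT4), a carrier typical of glycolytic cells, and SLC16A1 (MCT1), which carries lactate both ways. SLC16A3 was the member with the largest change and moved in opposite directions, at -3.05 and -2.99 in GALNT3 KO and at 2.75 and 3.37 on the GALNT3/T6 KO-labelled arrays. It was 8.09-fold lower than Ctrl in the first (SE 0.16, adjusted p = 0.0066) and 8.34-fold higher in the second (SE 0.16, adjusted p = 0.00035). The groups differed by 6.08 (SE 0.23, adjusted p = 0.000445). SLC16A1 stood at 0.28 and 0.11 in GALNT3 KO and at -0.42 and -0.22 on the others, in each group on the other side of Ctrl from SLC16A3, and was not called (adjusted p = 0.22 and 0.052).

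Pyruvate dehydrogenase passes pyruvate on to the mitochondrial cycle, and PDK1 switches it off. PDK1 stood at 0.15 and 0.79 in GALNT3 KO and at 1.44 and 0.93 on the GALNT3/T6 KO-labelled arrays, where it rose 2.27-fold (mean 1.18, SE 0.21, adjusted p = 0.010). A second PDK1 probe gave -0.69 in GALNT3 KO and 0.25 in the other group, so the sign in GALNT3 KO depended on the probe. The enzyme's subunits PDHA1 and PDHB were not called. PDHA1 stood at -0.49, -1.06, -0.60 and -0.27 over GALNT3 KO 1 and 2 and GALNT3/T6 KO 1 and 2, and PDHB at 0.10, 0.16, 0.22 and 0.28.

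In the oxidative pentose phosphate branch, PGD, which makes NADPH, stood at -0.37 and -0.47 in GALNT3 KO and at -1.85 and -1.0 on the GALNT3/T6 KO-labelled arrays, where it fell 2.69-fold (mean -1.43, SE 0.21, adjusted p = 0.0064). PGLS, the lactonase before it, stood at 0.42, 0.72, 0.05 and 0.75, without a call. In the non-oxidative branch, RPIA, which forms ribose phosphate, stood at -0.26 and -0.45 in GALNT3 KO and at -1.69 and -1.42 on the GALNT3/T6 KO-labelled arrays. RPIA fell 2.94-fold in the latter (mean -1.56, SE 0.11, adjusted p = 0.0007) and the groups differed by -1.20 (SE 0.15, adjusted p = 0.0075). The epimerase RPE stood at -0.26, -0.33, 0.10 and 0.14, the transketolase TKT at 0.01, -0.20, -0.64 and 0.46, and the transaldolase TALDO1 at 0.10, 0.03, 0.09 and 0.63, and none of these 3 was called.

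Set against each other, the groups differed in 9 members, 4 higher (11.8%, against 11.9% of all genes) and 5 lower (14.7%, against 11.9%) on the GALNT3/T6 KO-labelled arrays than in GALNT3 KO. These shares are near those of all genes. Higher were SLC16A3, ENO2, SLC2A3 and HK1, and lower were ENO3, RPIA, PFKM, PFKFB3 and ALDOC. Both comparisons with Ctrl rest on Ctrl RNA. With either GALNT3 KO array left out, 2 of the 9 differences were called, SLC16A3 and ENO3. The calls over all genes fell as well, to 2.71% higher and 1.74% lower without replicate 1 and to 3.1% and 2.13% without replicate 2.

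Isoform choice was read within each array, as the difference between the log2 ratios of 2 paralogs. Such a difference shows unequal change of the paralogs and not which is more abundant. With 2 against 2 arrays an exact permutation test cannot go below p = 0.333, so these differences are described without a test. SLC16A3 minus SLC16A1 was -3.32 and -3.10 in GALNT3 KO and 3.18 and 3.58 on the GALNT3/T6 KO-labelled arrays, the widest gap of the 13 pairs. ENO2 minus ENO3 was -0.03 and -0.18 in GALNT3 KO and 3.54 and 4.57 on the others. LDHA minus LDHB was -0.83 and -0.61 in GALNT3 KO and 1.33 and 1.96 on the others, a change of side that all 4 arrays showed.

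The phosphofructokinase subunits shifted too. PFKP minus PFKM was -0.51 and -0.31 in GALNT3 KO and 0.74 and 1.42 on the GALNT3/T6 KO-labelled arrays, and PFKP minus PFKL was -0.74 and -0.66 against 0.06 and 0.07. The latter pair depends on the PFKL probe, since a second probe of similar mean log2 intensity (10.05 against 10.13) read differently. That probe stood at -0.67 and -0.30 in GALNT3 KO and at -1.06 and 0.02 on the others. HK2 minus HK1 was below 0 on every array, at -0.41 and -0.90 in GALNT3 KO and at -1.54 and -1.14 on the others. ALDOC minus ALDOA was -0.18 and -0.20 in GALNT3 KO and -0.69 and -1.76 on the others. For PFKFB4 minus PFKFB2 the values of the groups overlapped. Several pairs share a gene, so the 13 pairs are not independent. SLC2A3 minus SLC2A1 in GALNT3 KO was -0.06, near 0, and turned to 0.40 with Agilent's log ratio and 0.15 with median centring.

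**Figure D1:**
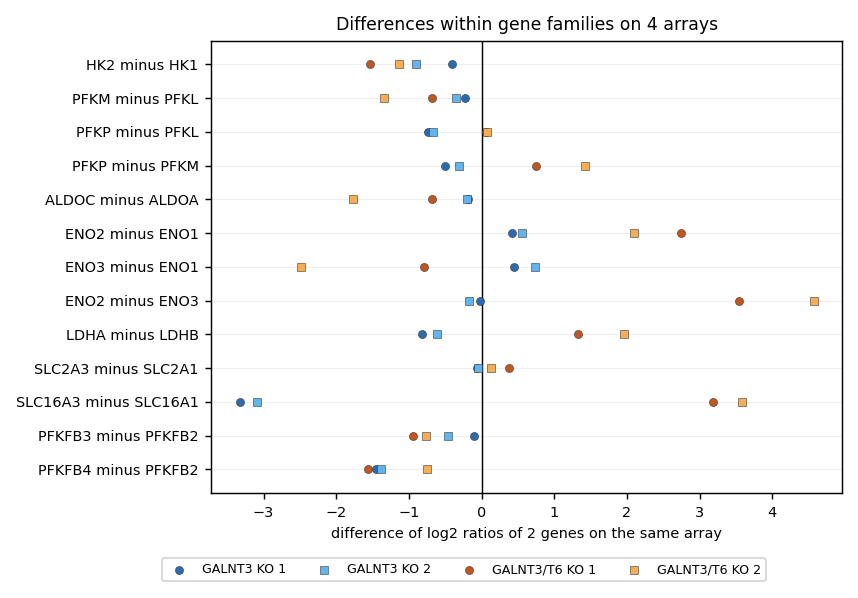
Difference of the log2 ratios of 2 paralogs on the same array (x axis) for 13 pairs (y axis), with a point for each of the 4 arrays and no error bar. SLC16A3 minus SLC16A1, LDHA minus LDHB and PFKP minus PFKM lie on opposite sides of 0 in the groups, and the points of the groups overlap in PFKFB4 minus PFKFB2.

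The 2 clones labelled GALNT3/T6 KO differed in the transcripts of the abundant glycolytic enzymes. Each clone was measured on 1 array, so a difference between the clones cannot be told apart from one between the arrays. Of the 34 members, 29 were higher in clone 2 than in clone 1 (85.3%, against 51.0% of all genes), with a median difference of 0.60 (0.01 over all genes). The largest differences were those of PGK1 (1.71), GPI (1.46), ENO1 (1.46), TPI1 (1.35) and GAPDH (1.26), followed by PGM1 (1.24), LDHA (1.23) and TKT (1.1). These 8 members were at least 1 higher, 23.5% of the members against 2.01% of all genes. The members that were lower in clone 2 were PDK1 (-0.51), PFKFB2 (-0.23), ENO3 (-0.22), ALDOC (-0.20) and PFKFB3 (-0.05). In GALNT3 KO, by contrast, 15 of 34 members were higher in clone 2 and the median difference was -0.03.

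Brightness went with this difference. The 11 members with a mean log2 intensity of at least 15 were all higher in clone 2, with a median of 1.23, against a median of 0.05 and 52.6% higher among the 1227 other genes as bright. The 23 dimmer members had a median of 0.33, and 18 of them were higher. Over the 11 bright members, the KO channel was higher in clone 2 by a median of 0.91 (range 0.31 to 1.58), whereas the same difference in the Ctrl channel had a median of -0.13 (range -0.52 to -0.03). These channel values were rebuilt from the normalized ratio and mean intensity, and are not raw signals. Of the 24 member probes that were not used, 18 were higher in clone 2, with a median difference of 0.22. The other 2 LDHA probes were higher by 1.17 and 0.97. For PGK1 the other probes were higher by only 0.14 to 0.88, for TPI1 by 0.56 and for ALDOA by 0.14. The other probes of PGLS and SLC2A1 were lower in clone 2, at -0.17 and -0.49.

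**Figure D2:**
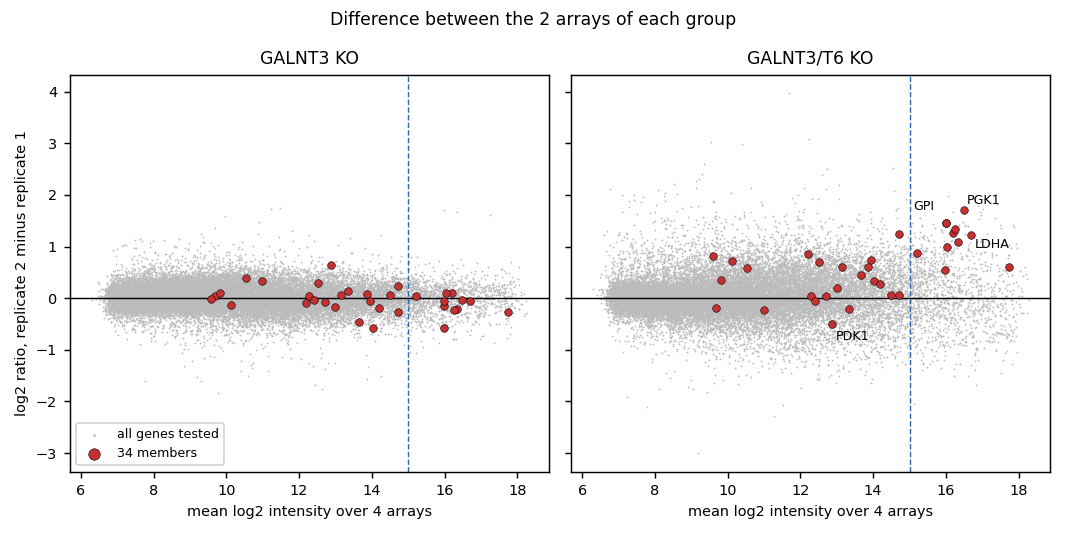
Difference of the log2 ratio between replicate 2 and replicate 1 (y axis) against the mean log2 intensity over the 4 arrays (x axis), for GALNT3 KO at left and the GALNT3/T6 KO-labelled arrays at right. Gray points are the 27196 genes tested and red points the 34 members, and right of the dashed line at 15 the red points lie above 0 in the right panel, between 0.55 and 1.71.

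Of the members, 16 were measured by more than 1 probe, and in 8 of them the probes differed in sign in at least 1 group. These were HK1, PDK1, PFKFB2, PFKFB3, PFKL, PGK1, RPE and SLC2A1. As group means, ENO1, HK2, LDHA, PGLS, SLC2A3, TALDO1, TPI1 and ALDOA had the same sign for every probe in each group. Single arrays could differ. In GALNT3/T6 KO 2 the probe used and the other probe stood at 0.49 and -0.77 for TPI1, 0.41 and -0.38 for ALDOA, and 0.27 and -0.05 for ENO1. For PGK1 the 5 probes ran from -0.54 to 0.20 in GALNT3 KO and from -0.37 to 0.48 on the GALNT3/T6 KO-labelled arrays. With the mean of all probes in place of the brightest, PFKFB3 stayed called on the GALNT3/T6 KO-labelled arrays at -0.29, and the difference between the groups in PFKFB3 and HK1 was no longer called.

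Other genes of these pathways were counted from a fixed list of 66, of which 61 were tested. In GALNT3 KO, 4 were called higher and 5 lower, and on the GALNT3/T6 KO-labelled arrays, 18 were higher (29.5%) and 16 lower (26.2%), close to the shares of all genes. The largest falls in GALNT3 KO were those of PGM3, an enzyme of hexosamine synthesis (-1.23 and -1.29), of the pyruvate carboxylase PC (-0.72 and -1.29) and of BPGM, which makes a bisphosphoglycerate (-1.08 and -0.91). On the GALNT3/T6 KO-labelled arrays, the largest changes were those of HKDC1, a further hexokinase (2.93 and 3.23), of PCK2, the mitochondrial carboxykinase (-3.09 and -1.94), and of PDP1, the phosphatase that opposes PDK1 (2.26 and 2.62). All 6 were called in limma. PKM, the pyruvate kinase, stood at -0.41, -0.46, -0.24 and 0.68 over GALNT3 KO 1 and 2 and GALNT3/T6 KO 1 and 2, without a call.

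Genes of the other carriers and exporters were read from the same list. Of the glucose carriers, SLC2A14, a close paralog of SLC2A3 whose transcript the probe of SLC2A3 may also bind, stood at 0.96 and 1.46 on the GALNT3/T6 KO-labelled arrays and SLC2A12 at 0.62 and 0.88. SLC16A7 (MCT2) stood at 1.49 and 1.03 there and at 0.14 and 0.02 in GALNT3 KO. Basigin (BSG), the chaperone that both MCT1 and MCT4 need at the membrane, stood between -0.33 and 0.01 on the 4 arrays and was not called. Embigin (EMB), a related chaperone, stood at -1.06 and -0.62 on the GALNT3/T6 KO-labelled arrays and was called lower (adjusted p = 0.0070). SLC2A14, SLC2A12, SLC16A7, BSG and EMB were chosen after their values were seen.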

How the data were processed

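Gene expression was measured in 4 A2780s clones against Ctrl on 4 arrays of 1 slide. The authors deposited Feature Extraction scanner files with spot intensity per channel and a log10 ratio, and a table of log10 ratios that lay within 0.005 of the scanner log10 ratio. The version was 8.5.1.1 in the submitters' processing notes and 10.7.3.1 in the file headers. From the deposited intensity, log2 ratios of Cy5 (KO) over Cy3 (Ctrl) were computed in limma 3.58.1 (R 4.3.3) with normexp background correction (offset 50) and loess within each array. The 1639 control spots and the outlier spots had weight 0. Signals of a single channel were rebuilt from the log2 ratio and the mean log2 intensity, after quantile normalization of that intensity between arrays. Of 41000 probes, 38195 were well above background on both arrays of a group in a channel, and the brightest probe stood for each of 27196 genes. Between 86.9% and 93.8% of spots were well above background and 0 were saturated. The number of arrays limits the precision. Group means were fitted over all 4 arrays with a moderated spread and Benjamini-Hochberg adjustment, and the pipeline was tested on simulated data.

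The members and lists were chosen with earlier results of these data known. All 34 members are named, and from each other list the 3 called genes with the largest change and the same sign on both arrays, plus PKM, HIF1A and MYC; a further gene of that rule is not reported here. SLC2A14, SLC2A12, SLC16A7, BSG and EMB were added outside it, after their values were seen. Replicates are clones, and the p-values measure the spread between these 4 arrays. Alternatives were Agilent's log ratio, the deposited table, median centring, no background correction, no filter, the mean of all probes, fits on own arrays, a plain t-test, a replicate block and each array left out.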

Additional observations from a re-analysis of the deposited data

Results flagged for a closer look

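The difference between the GALNT3/T6 KO-labelled arrays and GALNT3 KO passed the test in limma for 9 members, and each is given as the log2 ratio in the first minus that in the second. It was 6.08 for SLC16A3, 2.03 for ENO2, 0.98 for SLC2A3 and 0.53 for HK1. It was -2.13 for ENO3, -1.20 for RPIA, -0.78 for PFKM, -0.76 for PFKFB3 and -0.51 for ALDOC. SLC16A3 was called in both groups, with opposite signs, and ALDOC was called in both with the same sign. The sources of these differences were not tested, and with no dye swap the KO and the dye cannot be told apart in either group.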

How the results depend on the processing

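No called value changed sign under any alternative run. In GALNT3 KO, 2 members were lower with Agilent's log ratio (1.45% of all genes) and with the deposited table (1.43%), 1 was higher with the mean of all probes (4.47%), and 2 were higher and 17 lower on own arrays. Leaving out 1 array gave 0 to 2 higher, 0 to 17 lower and a median of -0.35 to -0.24. On the GALNT3/T6 KO-labelled arrays it gave 4 to 16 higher and 7 to 18 lower, and for the group difference 1 to 16 higher and 1 to 11 lower. Each of these fits leaves 1 array in a group. The share of all genes called also changed with the array left out, in each comparison. The ranges are therefore not read as particular to the members. Median centring left 2 higher and 3 lower group differences (10.2% and 8.69% of all genes). A plain t-test, which the methods name for other assays, called 0 members in each comparison after adjustment, and over all genes 0 in GALNT3 KO, 1 in the other group and 24 higher and 9 lower in the difference. Same-numbered arrays deviated with r = -0.24. With 2 arrays a group the deviations mirror each other, and the crossed pairing has the same r with the opposite sign. This value therefore cannot decide whether the arrays are paired. With a replicate block, 1 member was lower in GALNT3 KO (0.191% of all genes), 5 were higher and 7 lower on the GALNT3/T6 KO-labelled arrays (18.2% and 18.9%), and 3 were higher and 3 lower in the difference (9.33% and 8.13%). The crossed pairing, added after seeing the data, gave 1 higher and 6 lower in GALNT3 KO (5.35% and 8.17% of all genes). It gave 5 and 11 on the GALNT3/T6 KO-labelled arrays (25.4% and 24.4%), and 6 and 7 in the difference (13% and 13.9%). The causes were not tested.

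Uncalled values that changed sign were these. With Agilent's log ratio, GALNT3 KO gave PFKL -0.16, ENO3 -0.18, LDHB -0.055, PDHB -0.063, TALDO1 -0.13, PFKM minus PFKL 0.15 and SLC2A3 minus SLC2A1 0.40, and the other group ALDOA 0.045, PGAM1 -0.022, PDHB -0.15, PGLS -0.083 and RPE -0.17. For these genes the deposited table gave the same values to these decimals. With median centring, GALNT3 KO gave HK1 -0.092, PFKL -0.054, GAPDH 0.019, ENO3 -0.21, SLC16A1 -0.093, PDHB -0.043, TKT 0.063 and SLC2A3 minus SLC2A1 0.15, and the other group PFKP -0.073, PFKFB2 -0.10, ALDOA 0.078, TPI1 0.089, RPE -0.13 and TKT 0.20. With the mean of probes, GALNT3 KO gave PFKL -0.22, PFKFB2 -0.052, PDK1 -0.11 and PFKFB3 minus PFKFB2 0.0058, and the other group SLC2A1 0.12, PFKFB2 -0.28 and RPE -0.14. With 1 array left out, GALNT3 KO gave GPI -0.21 to 0.37, PFKL -0.011 to 0.12, ENO3 -0.033 to 0.10 and TKT -0.20 to 0.015. The other group gave SLC2A1 -0.33 to 0.27, GPI -1.01 to 0.45, PFKL -0.37 to 0.36, PFKP -0.31 to 0.43, PFKFB2 -0.043 to 0.19, ALDOA -0.47 to 0.41, TPI1 -0.86 to 0.49, GAPDH -0.12 to 1.14, PGK1 -0.76 to 0.94, PGAM1 -0.43 to 0.56, ENO1 -1.19 to 0.27 and TKT -0.64 to 0.46.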

Other observations

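Of 20 hypoxia-responsive genes outside glycolysis, 2 were called higher and 5 lower in GALNT3 KO (4.79% and 6.44% of all genes), and 11 higher and 3 lower (24.8% and 23.1%) on the GALNT3/T6 KO-labelled arrays, with a median log2 ratio of 0.94 in the latter. The largest changes in GALNT3 KO were those of EGLN3 (1.81), STC2 (-1.53) and ANGPTL4 (-1.39), and on the GALNT3/T6 KO-labelled arrays those of ADM (4.26), LOX (3.76) and ANGPTL4 (-3.09). Between the groups, 8 were higher and 1 lower (11.9% of all genes in each direction) on the GALNT3/T6 KO-labelled arrays.

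The same shares of all genes apply to the lists below. Of 14 NRF2 targets, 3 were called lower in GALNT3 KO, GCLM (-0.89), GCLC (-0.61) and ABCC2 (-0.54), and 7 were called higher and 4 lower on the GALNT3/T6 KO-labelled arrays. The largest log2 ratios there were those of the ferritin chains FTH1 (4.42) and FTL (2.40) and of TXNRD1 (2.16). For FTH1 the Ctrl channel was also lower, with a log2 signal of 14.93 and 13.75 there, against 16.66 and 16.94 on the GALNT3 KO arrays. Its KO channel stood at 18.80 and 18.72, against 17.51 and 17.33. The Ctrl signal of FTL was 15.71 and 15.21, against 15.97 and 16.16. Of 11 regulators, NFE2L2 was called in GALNT3 KO (0.89), and 4 were higher and 2 lower on the GALNT3/T6 KO-labelled arrays. EPAS1, a hypoxia-inducible factor, stood at 5.72 and 5.81 there. Its Ctrl signal was 9.7 and 10.0 there, against 8.2 and 8.2 on the GALNT3 KO arrays. For ADM the Ctrl signal was 13.1 and 12.7, against 11.5 and 11.7. The Ctrl channel thus differed between the groups for genes other than the ferritins, and the source was not tested. On the GALNT3/T6 KO-labelled arrays MYC fell by 1.59 and KEAP1 by 0.79 as group means. HIF1A stood at 0.23, 0.05, 0.29 and 2.49 over GALNT3 KO 1 and 2 and GALNT3/T6 KO 1 and 2, and it was not called (adjusted p = 0.083). Its high value lay on the single array on which the abundant glycolytic enzymes were also high. The median of the 20 hypoxia-responsive genes was 0.70 in GALNT3/T6 KO 1 and 0.76 in GALNT3/T6 KO 2. Whether HIF1A has a part in the difference between these clones was not tested.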
